A study of Mus musculus with 139 samples.

Results

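Lungs taken 12 months after a single dose of crocidolite asbestos were compared with lungs taken 12 months after the vehicle alone. The comparison covers 7 mice given 120 µg crocidolite and 8 given dispersion medium (DM), 2 of the 18 groups of the series, and all 22180 mouse genes that a probe set names singly. Group membership comes from the source name of each array, and every array of these groups has its own mouse number, so the replicates are separate animals. They were males of the strain written C57BL/J6, bought at 7 weeks of age, dosed once by pharyngeal aspiration, in which a droplet at the base of the tongue is breathed in. Crocidolite was suspended in DM, a phosphate-buffered saline with glucose, mouse serum albumin and a surfactant phospholipid, and the controls received DM without fibres. Groups given 1, 10, 40 or 80 µg multi-walled carbon nanotubes (MWCNT) and the crocidolite and DM groups of 1 and 6 months are used where a difference calls for them. The series addressed inflammation, fibrosis and gene expression in mouse lung after aspirated MWCNT, with crocidolite as a second fibre.

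Crocidolite is an iron-rich amphibole asbestos whose long, thin fibres persist in the lung. Macrophages that cannot take a long fibre up whole remain around it, release proteases and chemokines, and can take on the lipid-storing, lysosome-rich state seen in granulomas. Asbestos is known for lasting inflammation, scarring of the airway wall and alveoli, pleural disease and cancer.

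Levels are log2 values after RMA, which corrects background, equalises the distribution of signals across arrays and summarises the probes of a feature. A difference is the crocidolite mean minus the DM mean on that scale, given with its standard error (SE), and 1 unit is a doubling. Each adjusted p comes from limma, two-sided, with a spread pooled over all 18 groups and Benjamini-Hochberg adjustment over the 22180 genes. Genes with an adjusted p under 0.05 are called higher or lower. No detection calls came with the values, so low levels cannot be told from background, and array medians over all features were 4.01 to 4.34.

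The lung markers Sftpc of type 2 alveolar cells and Scgb1a1 of club cells had lowest levels of 12.52 and 12.58 in crocidolite lungs and 12.44 and 12.55 in DM lungs, among the highest values of the arrays. DM replicate 2 stood apart: its median correlation with other arrays was 0.961, against 0.976 to 0.985 for the other 14, and it alone had a high level of Acta1, the skeletal muscle actin, at 7.92. DM replicate 4 had the highest mean level of the adipose list (7.24, against 5.11 to 6.32 in the other DM mice) and the lowest of the type 1 alveolar list (8.44). The titles of 5 crocidolite and 3 DM arrays carry the word replacement, whose meaning is not given, and it is treated as a possible batch.

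Crocidolite lungs differed from DM lungs in 1434 genes (6.47% of those tested), with 955 higher (4.31%) and 479 lower (2.16%). Among called genes, 151 were more than 2-fold higher and 27 more than 2-fold lower, and the median difference was 0.61 for those higher and -0.50 for those lower. Every crocidolite mouse lay above every DM mouse for 317 genes (1.43%) and below every DM mouse for 81 (0.365%). The balance of directions depended on the scaling: 66.6% of called genes were higher as deposited, 54.6% after quantile normalization of the genes (1040 higher, 864 lower), 51% after centring arrays on their medians (929 and 892) and 54.4% without DM replicate 2 (775 and 649). Among arrays whose titles carry the word replacement (5 against 3) 282 genes were higher and 7 lower, and among the others (2 against 5) 295 were higher and 322 lower. With the word as a covariate the counts were 1085 and 523.

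**Figure D1:**
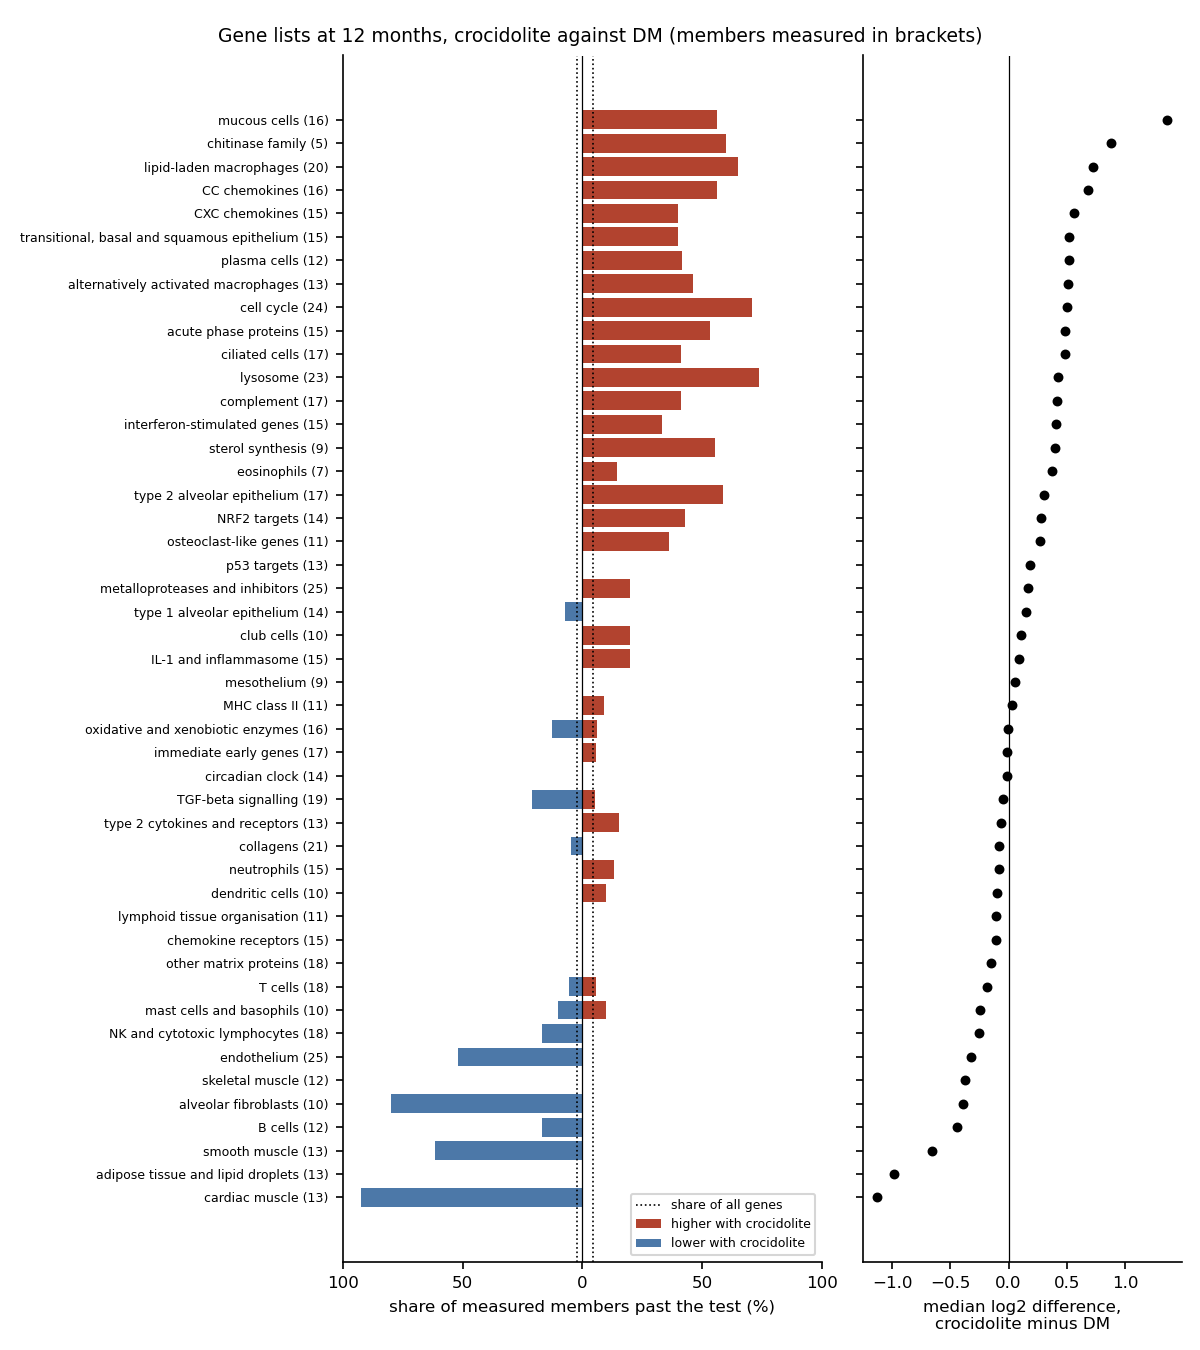
Share of measured members past the limma test (left, higher to the right of 0 and lower to the left, in %) and median log2 difference, crocidolite minus DM (right), for the 47 gene lists with at least 5 measured members, sorted by median. Mucous cell genes had the highest median (1.36) and cardiac muscle genes the lowest (-1.13), and dotted lines mark the shares over all genes (4.31% higher and 2.16% lower).

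The largest increases were in genes of mucus secretion and of the mucosal surface. Of 16 measured mucous cell genes 9 were higher and 0 lower, with a median difference of 1.36, against -0.01 over all genes. Whether cells of a type became more numerous or held more RNA each cannot be told apart in whole lung. Clca1, a secreted protease that marks goblet cells, lay between 7.04 and 9.39 in crocidolite lungs (median 8.86), against 3.30 to 4.75 in DM lungs (median 3.69). The groups did not overlap, and the difference of 4.70 ± 0.66 was 26-fold (adjusted p = 2.5e-08). Muc5ac, the inducible gel-forming airway mucin, was at 5.71 to 6.15 in crocidolite lungs and 3.23 to 3.94 in DM lungs, a difference of 2.27 ± 0.28 (adjusted p = 4.53e-10). Muc5b, the mucin of resting airways, was higher by 1.61 ± 0.18 (adjusted p = 6.74e-12), Agr2, which folds mucins in the endoplasmic reticulum, by 2.32 ± 0.29 and the intelectin Itln1 by 2.06 ± 0.24. Spdef and Foxa3, transcription factors of goblet cells, did not pass the test (0.39 and 0.22).

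Mucosal defence genes outside that list reached similar sizes. Dmbt1, a secreted scavenger receptor that binds bacteria, lay between 5.91 and 7.85 in crocidolite lungs (median 7.14), against 2.28 to 3.36 in DM lungs (median 2.58). All 7 crocidolite mice were above all 8 DM mice, the difference was 4.36 ± 0.29 (adjusted p = 2.62e-26), and the DM levels lay below the array medians. Gp2, a membrane glycoprotein of pancreatic granules and of M cells that binds bacterial fimbriae, was at 7.10 to 8.02 with crocidolite (median 7.60) and at 2.66 to 3.70 with DM (median 3.39). That difference was 4.27 ± 0.27 (adjusted p = 4.85e-27), with no overlap. Ltf, the iron-binding lactoferrin, was higher by 2.39 ± 0.34 and the secretoglobin Scgb3a1 of airway secretory cells by 2.30 ± 0.25. Reg3g, an antibacterial lectin chosen after its values were seen, was at 8.78 to 9.28 with crocidolite and 6.40 to 7.16 with DM, a difference of 2.24 ± 0.32 (adjusted p = 5.03e-08). Pigr, the receptor that carries IgA and IgM across epithelium, was higher by 1.58 ± 0.22 (adjusted p = 1.11e-08).

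Other genes among the 20 furthest above DM belong to no list used here. Npy, the neuropeptide Y precursor, was at 5.33 to 7.18 with crocidolite and 3.07 to 4.26 with DM (2.80 ± 0.32, adjusted p = 1.21e-11). Cdhr1, a cadherin known from photoreceptors, was at 5.25 to 6.14 with crocidolite and 2.77 to 3.34 with DM (2.65 ± 0.20, adjusted p = 5.93e-21). Awat1, a wax-synthesising acyltransferase, was higher by 2.38 ± 0.31 and Clca3b, a relative of Clca1, by 2.37 ± 0.24. The groups did not overlap for these 4 genes, which were named for the size of their differences. Every crocidolite mouse lay above every DM mouse in 1.43% of all genes. As with Dmbt1, the DM levels of these 4 genes were below the array medians on average.

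**Figure D2:**
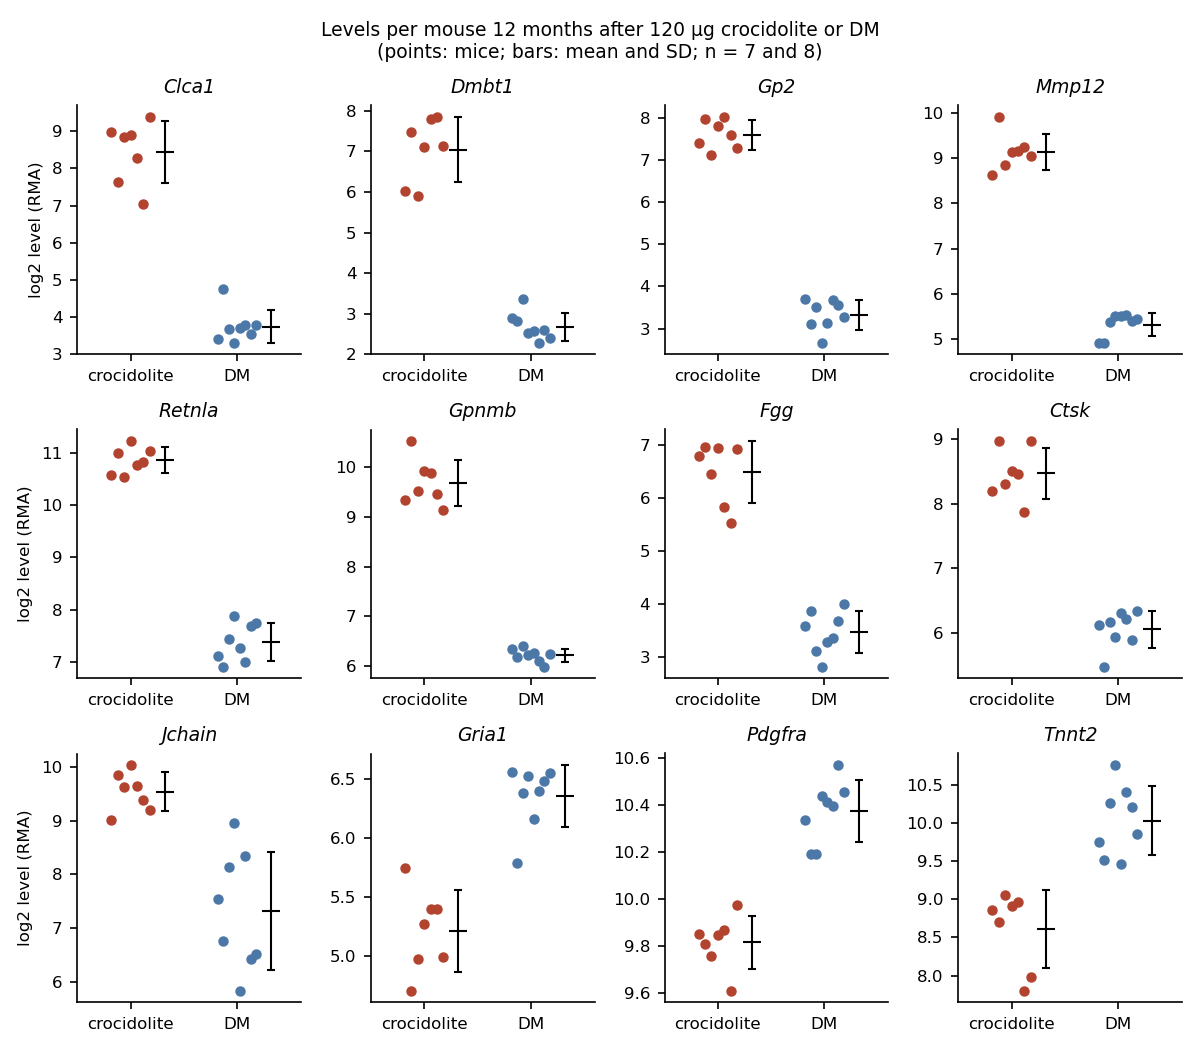
Log2 level of 12 genes in each mouse 12 months after 120 µg crocidolite (left, n = 7) or DM (right, n = 8), with the mean and SD beside the points, on separate vertical axes that do not start at 0. The groups do not overlap for any of the 12 genes, with Clca1 at 7.04 to 9.39 against 3.30 to 4.75 and Tnnt2 at 7.80 to 9.06 against 9.46 to 10.76. The 12 were picked for display, and over all genes the crocidolite mice lie wholly above in 1.43% and wholly below in 0.365%.

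Macrophage genes formed the other large group of increases. Retnla, a secreted protein of alternatively activated macrophages and airway epithelium in mice, was at 10.54 to 11.24 in crocidolite lungs (median 10.84), against 6.90 to 7.88 in DM lungs (median 7.35). The groups were separate and the difference was 3.49 ± 0.32, or 11.2-fold (adjusted p = 1.86e-16). Of 13 measured genes of alternative activation 6 were higher and 0 lower (median 0.51), among them the chemokine Ccl17 (1.17 ± 0.26, adjusted p = 0.001), the beta-glucan receptor Clec7a (1.18 ± 0.23) and the mannose receptor Mrc1 (0.60 ± 0.17). Arg1, the arginase that competes for the substrate of nitric oxide synthase, was at 4.26 to 4.85 with crocidolite and 3.74 to 4.76 with DM, and its difference of 0.30 ± 0.34 did not pass (adjusted p = 0.755).

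Alternative activation is driven by interleukins 4 and 13 through the transcription factor STAT6, which binds TTC and GAA separated by 4 bases of any kind. Promoters of 300 bases, 250 before to 50 after the gene's start, were taken from RefSeq (GRCm38.p6) and searched for TTCNNNNGAA, which reads the same on both strands. It was present for 4 of the 8 genes of the list that have a promoter entry, against 8.01% of all genes with one. The share was 7.43% of the genes tested and 7.34% of those higher with crocidolite. The promoters of Retnla (chr16:48842359-48842658, plus strand) and Ccl17 (chr8:94810203-94810502, plus strand) are shown since both genes rose and hold a match, which is in capitals. Clec7a also holds a match, as does Pdcd1lg2, a ligand of the receptor PD-1, which was not called (0.41 ± 0.20). A match is a description of the letters and not a binding site.
Retnla: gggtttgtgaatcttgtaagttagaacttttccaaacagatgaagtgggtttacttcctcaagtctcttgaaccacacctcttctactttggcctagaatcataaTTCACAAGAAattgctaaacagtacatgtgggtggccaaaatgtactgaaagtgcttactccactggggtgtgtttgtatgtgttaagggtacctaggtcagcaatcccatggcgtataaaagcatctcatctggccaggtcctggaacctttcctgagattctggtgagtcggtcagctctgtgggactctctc
Ccl17: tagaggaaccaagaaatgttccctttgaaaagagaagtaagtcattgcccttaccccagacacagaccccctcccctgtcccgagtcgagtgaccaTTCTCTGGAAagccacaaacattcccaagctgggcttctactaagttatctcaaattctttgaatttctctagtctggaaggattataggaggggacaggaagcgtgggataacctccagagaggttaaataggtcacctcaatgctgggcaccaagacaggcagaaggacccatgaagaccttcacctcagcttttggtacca
The match lies before the start of both genes. Among the 8 mucous cell genes and the 5 chitinase genes with an entry, 0 held a match in this window.

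Of 20 genes of lipid-laden macrophages 13 were higher, 0 lower and 7 not called, with a median difference of 0.72. Gpnmb, a lysosomal membrane glycoprotein of foam cells, was at 9.14 to 10.54 in crocidolite lungs (median 9.54), against 5.98 to 6.40 in DM lungs (median 6.24), a difference of 3.47 ± 0.33 (adjusted p = 1.05e-15). Trem2, a lipid-sensing receptor, was higher by 1.91 ± 0.25, the macrophage endosomal protein Cd68 by 1.59 ± 0.21, the fatty acid binding protein Fabp5 by 1.51 ± 0.20 and the scavenger receptor Msr1 by 1.41 ± 0.23. In each of these 5 genes all 7 crocidolite mice were above all 8 DM mice, as in 1.43% of all genes. They are the 5 largest called differences of the list, so this separation is a description. Cd36, the fatty acid translocase, and the adipocyte-shared Fabp4 were not called (-0.13 and -0.67).

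Chitinase-like genes were higher in 3 of 5 cases. Chil1 was at 10.79 to 11.34 with crocidolite and 9.95 to 10.59 with DM (difference 0.88 ± 0.12, adjusted p = 2.19e-08). Chil4 was at 4.80 to 6.62 with crocidolite and 1.84 to 4.13 with DM (3.24 ± 0.60), and Chil3, the abundant macrophage protein Ym1, was higher by 1.01 ± 0.28 (adjusted p = 0.01). Chil3 and Chil4 are near copies whose probes may share transcripts, so the division between them is uncertain. The enzymes Chia1 and Chit1 did not pass (0.29 and 0.05).

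Lysosomal genes changed by less but in larger number, 17 of 23 being higher and 0 lower (median 0.43). Ctsk, a collagen-degrading cathepsin best known from osteoclasts, was at 7.88 to 8.97 in crocidolite lungs (median 8.46), against 5.47 to 6.34 in DM lungs (median 6.15), a difference of 2.41 ± 0.27 (adjusted p = 3.44e-12). Ctsd, an aspartic cathepsin, was at 10.68 to 11.37 with crocidolite and 9.79 to 10.36 with DM (0.92 ± 0.13, adjusted p = 1.11e-08). Gla, the alpha-galactosidase, was at 6.73 to 7.38 with crocidolite and 5.47 to 6.24 with DM (1.00 ± 0.15, adjusted p = 2.16e-07). Of 11 osteoclast-like genes 4 were higher, which besides Ctsk are the proton pump subunit Atp6v0d2 (1.83 ± 0.25), the acid phosphatase Acp5 (0.96 ± 0.19) and Tnfrsf11a, also called RANK (0.50 ± 0.13). Dcstamp, Ocstamp, Calcr and Nfatc1, genes of cell fusion and osteoclast identity, were not called (0.54, -0.22, 0.02 and -0.14).

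Transcription of lysosomal genes is coordinated by TFEB and related factors through E-boxes with the letters CACGTG, also read alike on both strands. This motif was found in the 300-base promoters of 8 of the 20 lysosome genes with an entry, or 40%, against 8.09% of all genes with one. The share was 9.19% of the genes tested, 9.65% of those higher with crocidolite and 0 of 5 osteoclast-like genes. Ctsd (chr7:142387778-142388077, minus strand) and Gla (chrX:134600956-134601255, minus strand) are shown as lysosomal genes that rose and hold the motif, in capitals. Of the 7 measured lysosome genes that hold the motif, 3 were called higher, Ctsa (0.39 ± 0.10) being the third, and 4 did not pass the test, Lamp1, Ctsl, Ctsf and Mcoln1 (0.16, 0.23, -0.03 and -0.06).
Ctsd: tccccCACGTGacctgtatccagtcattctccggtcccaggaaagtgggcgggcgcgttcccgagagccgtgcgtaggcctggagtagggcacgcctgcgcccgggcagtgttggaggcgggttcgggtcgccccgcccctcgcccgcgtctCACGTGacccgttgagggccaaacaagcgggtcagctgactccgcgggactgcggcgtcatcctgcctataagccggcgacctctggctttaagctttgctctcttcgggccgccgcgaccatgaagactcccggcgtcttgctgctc
Gla: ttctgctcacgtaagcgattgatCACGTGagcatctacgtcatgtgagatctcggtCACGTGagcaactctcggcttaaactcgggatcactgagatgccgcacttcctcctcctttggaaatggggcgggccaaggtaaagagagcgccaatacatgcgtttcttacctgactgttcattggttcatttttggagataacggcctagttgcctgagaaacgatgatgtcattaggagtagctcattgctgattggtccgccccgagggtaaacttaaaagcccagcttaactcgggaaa

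Some proteases were higher, and no collagen gene was called higher. Mmp12, the macrophage elastase, was at 8.63 to 9.92 in crocidolite lungs (median 9.14), against 4.90 to 5.52 in DM lungs (median 5.42), a difference of 3.83 ± 0.36, or 14.3-fold (adjusted p = 1.23e-15). Of 25 metalloproteases and inhibitors 5 were higher and 0 lower: Mmp12, the myeloid protease Adam8 (1.31 ± 0.16), the collagenase Mmp13 (1.07 ± 0.23), Mmp19 (0.83 ± 0.19) and the inhibitor Timp1 (0.70 ± 0.21, adjusted p = 0.0215). The list's median was 0.17, and -0.02 among titles without the word replacement. Of 21 collagens 0 were higher and 1 lower (4.76% called, against 6.47% of all genes), Col13a1, a transmembrane collagen (-0.54 ± 0.14, adjusted p = 0.00689). Col1a1, a chain of the main fibrillar collagen, was at 7.00 to 8.25 with crocidolite and 7.20 to 8.60 with DM, and its difference of -0.25 ± 0.17 did not pass (adjusted p = 0.508). Col3a1 differed by -0.03 ± 0.15. The median of the collagens was -0.08, and it was 0.13 among arrays titled with the word replacement and -0.35 among the others, with 5 lower there and 3 without DM replicate 2. Of 18 other matrix genes, which include Fn1, Postn and Tnc, limma called 0, with 4 at an unadjusted p under 0.05.

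Of 19 TGF-beta signalling genes 1 was higher and 4 lower (2 with the 2 groups fitted alone). Inhba, an activin subunit, was at 3.65 to 4.49 with crocidolite and 2.73 to 3.53 with DM (0.80 ± 0.24, adjusted p = 0.0205). The inhibitory Smad6 (-0.65 ± 0.19), the ligand Bmp6 (-0.54 ± 0.14), the co-receptor Tgfbr3 (-0.43) and the latency protein Ltbp1 (-0.41) were lower, and the ligands Tgfb1, Tgfb2 and Tgfb3 were not called (0.01, 0.10 and 0.01).

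Chemokine genes were called in number. Of 16 CC chemokines 9 were higher and 0 lower (median 0.68). Ccl3, which recruits monocytes and other leukocytes, was at 6.82 to 7.84 in crocidolite lungs (median 7.30), against 4.93 to 6.09 in DM lungs (median 5.45), a difference of 1.76 ± 0.24 (adjusted p = 1.2e-08). Ccl8 was higher by 1.37 ± 0.26, Ccl6 by 1.26 ± 0.24 and the monocyte chemokine Ccl2 by 0.86. Of 15 CXC chemokines 6 were higher (3 with the 2 groups fitted alone), led by Cxcl17, a mucosal chemokine (9.01 to 9.41 with crocidolite, 7.39 to 7.94 with DM, difference 1.39 ± 0.15, adjusted p = 9.96e-13). Cxcl9, an interferon-gamma-inducible attractant of T cells, spread from 4.76 to 8.36 among crocidolite mice, against 4.57 to 5.83 among DM mice, with 4 of 7 above every DM mouse (1.37 ± 0.29, adjusted p = 0.000503). Of the 15 chemokine receptors in the list limma called 0, with 2 at an unadjusted p under 0.05 and a median of -0.11. Cxcr1, a chemokine receptor of neutrophils that was not in that list, was higher by 2.36 ± 0.28.

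Of 15 acute phase genes 8 were higher and 0 lower, and of 17 complement genes 7 were higher and 0 lower, with 1 complement gene lower after quantile normalization or centring. Saa3, a serum amyloid made by macrophages and epithelium, was at 5.33 to 7.61 with crocidolite and 3.34 to 4.55 with DM (2.76 ± 0.48, adjusted p = 1.25e-05). The fibrinogen gamma chain Fgg was at 5.53 to 6.96 with crocidolite (median 6.80) and 2.81 to 4.01 with DM (median 3.47), a difference of 3.03 ± 0.32 (adjusted p = 1.93e-13). The alpha chain Fga was at 3.0 to 4.83 with crocidolite and 1.85 to 2.55 with DM (2.19 ± 0.33), and the beta chain Fgb was not called (0.25). Other acute phase genes called higher included Itih4 (1.60 ± 0.17) and the iron-withholding lipocalin Lcn2 (1.65 ± 0.21). The complement genes called higher included Cfi, a regulator that cleaves C3b (1.65 ± 0.23), the C3a receptor C3ar1 (1.62 ± 0.20) and C1qb of the macrophage-made C1q complex (1.30 ± 0.25). In the IL-1 and inflammasome list 3 of 15 rose, the antagonist Il1rn (0.97 ± 0.16), Il1a (0.73 ± 0.17) and Casp4 (0.61), and Il1b did not pass (-0.06).

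Granulocyte markers did not move together. Of 15 neutrophil genes 2 were higher, Ltf and Cd177, a surface glycoprotein (8.06 to 9.08 with crocidolite, 5.71 to 6.32 with DM, difference 2.58 ± 0.24, adjusted p = 8.83e-16). S100a8, an abundant calcium-binding protein of neutrophils, was at 5.27 to 7.31 with crocidolite and 5.00 to 7.14 with DM (-0.32 ± 0.37, adjusted p = 0.763), and the list's median was -0.08. Of 7 eosinophil genes Prg2, the major basic protein, was higher (0.97 ± 0.20, adjusted p = 0.000264), with 4 of 7 crocidolite mice above every DM mouse. Of 10 mast cell and basophil genes 1 was higher, Hdc, which makes histamine (0.73 ± 0.13), and 1 lower, the stem cell factor receptor Kit (-0.33 ± 0.10, adjusted p = 0.016). In the type 2 list, Il33, an alarmin stored in the nuclei of alveolar type 2 cells in mice, was at 8.08 to 8.61 with crocidolite and 7.03 to 7.92 with DM (0.97 ± 0.15, adjusted p = 1e-06). The interleukin 13 receptor subunit Il13ra1 was higher by 0.56 ± 0.11, and the cytokines Il4, Il5 and Il13 were not called (-0.07, -0.02 and -0.07).

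Lymphocyte lists did not move together, and most had few members called. Of 12 genes of plasma cells and antibody transport 5 were higher (median 0.52), including Pigr of epithelium. Among titles with the word replacement 4 were higher (median 0.46), and among titles without it 1 (median 0.22). Jchain, which joins IgA and IgM into polymers, was at 9.01 to 10.04 in crocidolite lungs (median 9.63), against 5.82 to 8.96 in DM lungs (median 7.16), a difference of 2.22 ± 0.48 (adjusted p = 0.000566). Ighm, the IgM heavy chain, was higher by 1.26 ± 0.34 (adjusted p = 0.00874). The variable segment Igkv6-23, chosen after its values were seen, was at 3.91 to 5.82 with crocidolite and 1.05 to 3.72 with DM (3.01 ± 0.55, adjusted p = 2.89e-05), and such segments share sequence with others of their family. All 12 B cell genes had differences below 0 (median -0.45) and 2 were called, the transcription factors Pax5 (-0.62 ± 0.18) and Ebf1 (-0.45 ± 0.14), of which neither passed without DM replicate 4. Of 18 NK and cytotoxic genes 3 were lower, among them the receptor Klrb1c (2.64 to 3.18 with crocidolite, 3.47 to 4.73 with DM, difference -1.02 ± 0.22, adjusted p = 0.000473) and granzyme A, Gzma (-0.84 ± 0.24). Of 18 T cell genes Foxp3, the transcription factor of regulatory T cells, was higher (0.62 ± 0.17, adjusted p = 0.011) and Cd8a lower (-0.68 ± 0.18, adjusted p = 0.00782), and without DM replicate 2 there were 4 lower. Of 10 dendritic cell genes 1 was higher, the integrin Itgae (0.56 ± 0.16). Of 11 MHC class II genes 1 was higher, Ifi30 (0.41), and of 11 lymphoid tissue genes limma called 0, with 3 at an unadjusted p under 0.05. The shares called in the T cell, dendritic cell and MHC class II lists were 11.1%, 10% and 9.09%, against 6.47% of all genes.

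Other epithelial lists differed in how many members were called. Of 17 type 2 alveolar genes 10 were higher and 0 lower (median 0.30), and 5 were higher with the 2 groups fitted alone. The collectin Sftpd was at 10.28 to 10.76 with crocidolite and 9.52 to 10.05 with DM (0.74 ± 0.12, adjusted p = 5.11e-07), Muc1 was higher by 0.76 ± 0.10 and the desaturase Scd1 by 0.64 ± 0.11, while Sftpc was not called (0.12 ± 0.05). Of 15 genes of transitional, basal and squamous epithelium 6 were higher: the cornified envelope gene Sprr1a (1.89 ± 0.46, adjusted p = 0.00278), the basal cell factor Trp63 (0.98 ± 0.17), the tight junction gene Cldn4 (0.69 ± 0.22) and the keratins Krt19 (0.64 ± 0.14), Krt18 (0.58) and Krt8 (0.52), of which Cldn4 was lost without any of 8 mice. Serpinb5, an epithelial serpin that was not in that list, was at 5.09 to 6.01 with crocidolite and 2.50 to 3.27 with DM (2.51 ± 0.40, adjusted p = 9.16e-07). All 17 ciliated cell genes had differences above 0 (median 0.48) and 7 were called, such as the dynein heavy chain Dnah5 (0.68 ± 0.13) and the master regulator Foxj1 (0.60 ± 0.15), against 4 without DM replicate 2. Among 10 club cell genes only Scgb3a1 and Gabrp, a GABA receptor subunit (0.80 ± 0.12), were called.

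Type 1 alveolar genes had 1 of 14 called (7.14%, against 6.47% of all genes), Cav1, the coat protein of caveolae (-0.26). The list's mean level was 9.65 to 9.74 in the 7 crocidolite mice, 9.24 and 8.44 in DM replicates 8 and 4, and 9.61 to 9.95 in the other 6 DM mice. Its median difference was 0.15, -0.09 without DM replicate 4 and -0.12 among titles with the word replacement.

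Proliferation genes were higher, with 17 of 24 called and all 24 differences above 0 (median 0.50). Mki67, the marker of cycling cells, was at 6.57 to 7.34 in crocidolite lungs (median 6.89), against 5.57 to 6.50 in DM lungs (median 6.10), a difference of 0.81 ± 0.15 (adjusted p = 3.53e-05). The mitotic kinase Aurkb was higher by 0.82 ± 0.20. Of 13 p53 target genes limma called 0, with 6 at an unadjusted p under 0.05 (median 0.19). Of 14 NRF2 targets 6 were higher (3 with the 2 groups fitted alone), led by the cystine transporter Slc7a11 (4.70 to 5.64 with crocidolite, 2.65 to 3.82 with DM, difference 1.95 ± 0.28, adjusted p = 5.37e-08) and the haem oxygenase Hmox1 (0.90 ± 0.14). Of 9 sterol synthesis genes 5 were higher, such as Sqle (0.61 ± 0.14) and Cyp51 (0.61 ± 0.13), and of 15 interferon-stimulated genes 5, led by Mx1 (0.81 ± 0.17). Of 16 oxidative and xenobiotic enzymes Cyp1b1 was higher (0.83 ± 0.14) and the monooxygenases Fmo2 (-0.36 ± 0.09) and Fmo1 were lower. Of 17 immediate early genes 1 was called (5.88%, against 6.47% of all genes), Atf3 (1.00 ± 0.17). Of 14 clock genes limma called 0, with 2 at an unadjusted p under 0.05.

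Among the 49 lists, those of alveolar fibroblasts, endothelium, smooth muscle and cardiac muscle held the most genes called lower (8, 13, 8 and 12). Most of the 479 genes called lower belong to none of the lists. Gria1, a glutamate receptor subunit listed here with alveolar fibroblast genes, was at 4.70 to 5.75 in crocidolite lungs (median 5.27), against 5.79 to 6.56 in DM lungs (median 6.44), a difference of -1.14 ± 0.16 (adjusted p = 4e-08). Pdgfra, their growth factor receptor, was at 9.61 to 9.97 with crocidolite and 10.19 to 10.57 with DM (-0.56 ± 0.08, adjusted p = 1.85e-07), and Tcf21, a mesenchymal transcription factor, was also lower (-0.62 ± 0.14). Of 10 alveolar fibroblast genes 8 were lower and 0 higher (median -0.40). All 7 crocidolite mice were below all 8 DM mice in the mean level of that list, 8.01 to 8.28 against 8.36 to 8.74, and DM replicate 2 was the lowest DM mouse. Like the other lists, it was chosen with earlier results of these data known, so this separation is a description.

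Of 25 endothelial genes 13 were lower and 0 higher (median -0.32), and 6 were lower with the 2 groups fitted alone. Ednrb, the endothelin receptor of capillary aerocytes, was at 7.99 to 9.02 with crocidolite and 8.75 to 9.50 with DM (-0.75 ± 0.15, adjusted p = 0.000271). Kdr, the main VEGF receptor, was at 9.66 to 10.09 with crocidolite and 10.21 to 10.67 with DM (-0.48 ± 0.11, adjusted p = 0.000881). Thbd, thrombomodulin, differed by -0.52 ± 0.12 and Plvap, the diaphragm protein of endothelial openings, by -0.57 ± 0.16. Pecam1 and Cdh5, junction proteins of all endothelium, differed by -0.29 ± 0.08 and -0.27 ± 0.08, the Cdh5 call being lost without any of 7 mice.

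Muscle genes held most of the lowest values. Of the 20 named genes furthest below DM, 18 are genes of cardiac or striated muscle, and the others are Bex4 (-1.15 ± 0.26) and Gria1. Every crocidolite mouse lay below every DM mouse for 7 of these 20. The same held for 72 of the 479 genes called lower and for 0.365% of all genes. Among the 20 furthest above DM, every crocidolite mouse lay above every DM mouse for 20. That held for 304 of the 955 genes called higher and for 1.43% of all genes. Both sets of 20 were chosen for the size of this same difference, so these counts are a description. In mice a sheath of cardiac muscle surrounds the pulmonary veins, and heart muscle can also enter a dissected lung. Myh6, the alpha cardiac myosin, was at 5.56 to 7.11 in crocidolite lungs (median 6.79), against 7.62 to 9.32 in DM lungs (median 8.22), a difference of -1.60 ± 0.34 (adjusted p = 0.000419). Tnnt2, the cardiac troponin T, was at 7.80 to 9.06 with crocidolite and 9.46 to 10.76 with DM (-1.42 ± 0.32, adjusted p = 0.00111). Of 13 cardiac genes 12 were lower (median -1.13), and the other, the atrial hormone Nppa, differed by -1.73 ± 0.61 (adjusted p = 0.0697).

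Of 13 smooth muscle genes 8 were lower (median -0.66), such as Myh11 (-0.87 ± 0.23) and the actin Acta2, also the usual marker of myofibroblasts (-0.64 ± 0.21, adjusted p = 0.0421). The Acta2 call was lost on leaving out any of 9 of the 15 mice, with adjusted p up to 0.169. Skeletal muscle genes, with 0 of 12 called by limma and 0 at an unadjusted p under 0.05 (median -0.37), were high in DM replicate 2, at a mean of 4.70 against 3.31 to 3.60 in the other DM mice. Adipose genes, with 0 of 13 called by limma and 7 at an unadjusted p under 0.05, had a median of -0.98, and the groups overlapped. Mean levels of the cardiac list lay between 5.77 and 6.92 in crocidolite mice and between 7.05 and 8.45 in DM mice, and those of the adipose list between 4.73 and 5.81 in crocidolite mice and between 5.11 and 7.24 in DM mice. Whether the amount of vein or heart muscle, fat or vessel in the tissue taken differed between groups was not tested.

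The decreases were counted within each kind of array title and without DM replicate 4. Among titles without the word replacement (2 against 5) 12 endothelial, 5 fibroblast, 10 smooth muscle and 7 cardiac genes were lower, with medians of -0.55, -0.52, -1.12 and -1.59. Among arrays with the word (5 against 3) 0 genes of these lists passed, with medians of -0.26, -0.37, -0.51 and -0.84. Without DM replicate 4, 8 endothelial, 6 fibroblast, 5 smooth muscle and 9 cardiac genes were lower. For mucous cell genes the medians were 1.02 without and 1.59 with the word, with 7 and 9 called, and for cell cycle genes 0.51 and 0.49, with 2 and 0 called. In the same order, lysosomal genes had medians of 0.31 and 0.45 (7 and 8 called) and ciliated cell genes 0.24 and 0.66 (0 and 1). Transitional, basal and squamous genes had 0.37 and 0.33 (1 and 0 called). Interferon-stimulated genes had 0.26 and 0.46 (1 and 1) and sterol synthesis genes 0.28 and 0.53 (0 and 0).

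**Figure D3:**
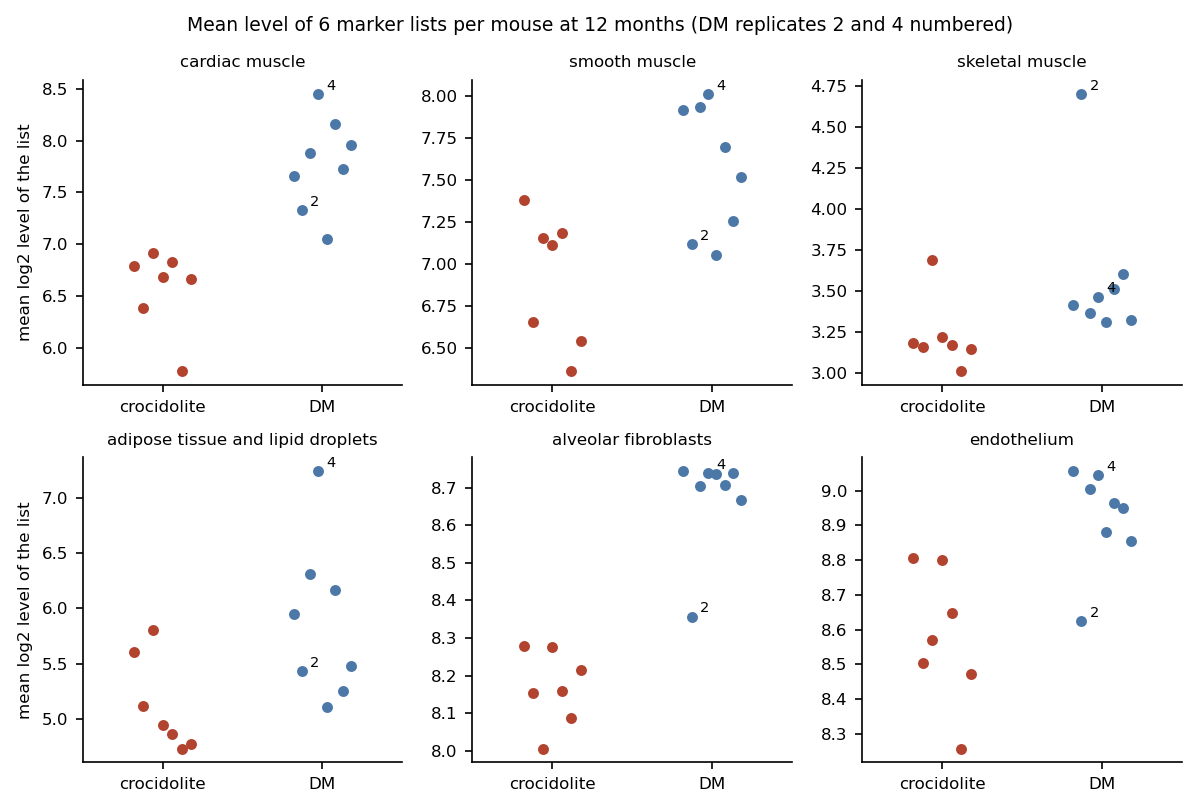
Mean log2 level of 6 marker lists in each mouse at 12 months, crocidolite left (n = 7) and DM right (n = 8), with DM replicates 2 and 4 numbered. Cardiac levels are 5.77 to 6.92 with crocidolite and 7.05 to 8.45 with DM without overlap, DM replicate 2 is highest for skeletal muscle (4.70) and DM replicate 4 for adipose genes (7.24).

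The 12-month response resembled earlier ones in part, with each time compared with its own DM mice. There were 5 crocidolite and 8 DM mice at 1 month, and 8 of each at 6 months. The word replacement was in the titles of 3 crocidolite and 4 DM arrays at 1 month, and of 0 and 1 at 6 months. The times are therefore not matched in mice or titles. Crocidolite lungs differed from DM lungs in 5.76% of genes at 1 month (2.93% higher, 2.83% lower) and 3.68% at 6 months (1.45% and 2.23%), against 6.47% at 12 months. Genes higher at both 12 months and 1 month made up 40.9% of those higher at 12 months and 60.3% of those higher at 1 month. For 6 months the shares were 28.4% of the 12-month and 84.4% of the 6-month genes. Genes lower at 12 months and 1 month made up 45.1% and 34.4% of the lower genes of those times, and for 6 months 39.7% and 38.4%.

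The effect itself differed between 12 months and 1 month in 12 genes (0.0541%), being higher in 8 (0.0361%) and lower in 4 (0.018%). With the 4 groups fitted alone 9 genes passed, 3 higher and 6 lower, and 6 of these 9 were among the 12. Of the 12 genes, Aqp4, Zfp750, Pon1, Cyp2f2, Gdpd2, Rnase2a, Corin and Icos were chosen after their values were seen. Fga differed by -0.24 ± 0.36 at 1 month, 0.69 ± 0.32 at 6 months and 2.19 ± 0.33 at 12 months, so that the 12-month effect exceeded the 1-month effect by 2.43 ± 0.49 (adjusted p = 0.00956). Fgg differed by 0.98 ± 0.35, 1.82 ± 0.30 and 3.03 ± 0.32 at those times (2.04 ± 0.47, adjusted p = 0.0496). Aqp4, a water channel of airway epithelium, was at 6.76 to 7.75 with crocidolite and 5.32 to 5.90 with DM at 12 months, a difference of 1.66 ± 0.16 that exceeded the one at 1 month by 1.09 ± 0.23 (adjusted p = 0.0202).

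Gabrp and Zfp750, an epithelial differentiation factor, also had larger effects at 12 months, by 0.90 ± 0.18 and 0.88 ± 0.19. Pon1, an esterase of serum that club cells also make, was lower at 1 month (-1.47 ± 0.19) and not called at 12 months (0.13 ± 0.17), a change of 1.59 ± 0.26 (adjusted p = 0.000185). Cyp2f2, a cytochrome P450 of club cells, behaved likewise (-0.61 ± 0.09 at 1 month, 0.02 ± 0.08 at 12 months), as did Gdpd2 (-0.82 ± 0.17 and 0.27 ± 0.15).

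Effects that were present at 1 month and smaller at 12 months were those of Rnase2a, an eosinophil-associated ribonuclease (4.21 ± 0.51 at 1 month, 0.50 ± 0.47 at 12 months, change -3.71 ± 0.70, adjusted p = 0.00458), and Arg1 (2.88 ± 0.38 and 0.30 ± 0.34, change -2.59 ± 0.51, adjusted p = 0.00868). Corin, a natriuretic peptide protease, and the T cell costimulator Icos changed by -1.55 ± 0.33 and -0.75 ± 0.17. For Clca1, Mmp12, Retnla and Gpnmb the change between the times was not past the test (-1.08 ± 0.98, -0.38 ± 0.54, -0.26 ± 0.47 and -0.25 ± 0.49). Without the 8 arrays of low correlation with others 0 genes passed for this change, with 1107 at an unadjusted p under 0.05. Without crocidolite replicate 7 the count was 27. Between 12 and 6 months limma called 0 genes, also with trended and robust moderation, and 1523 had an unadjusted p under 0.05.

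**Figure D4:**
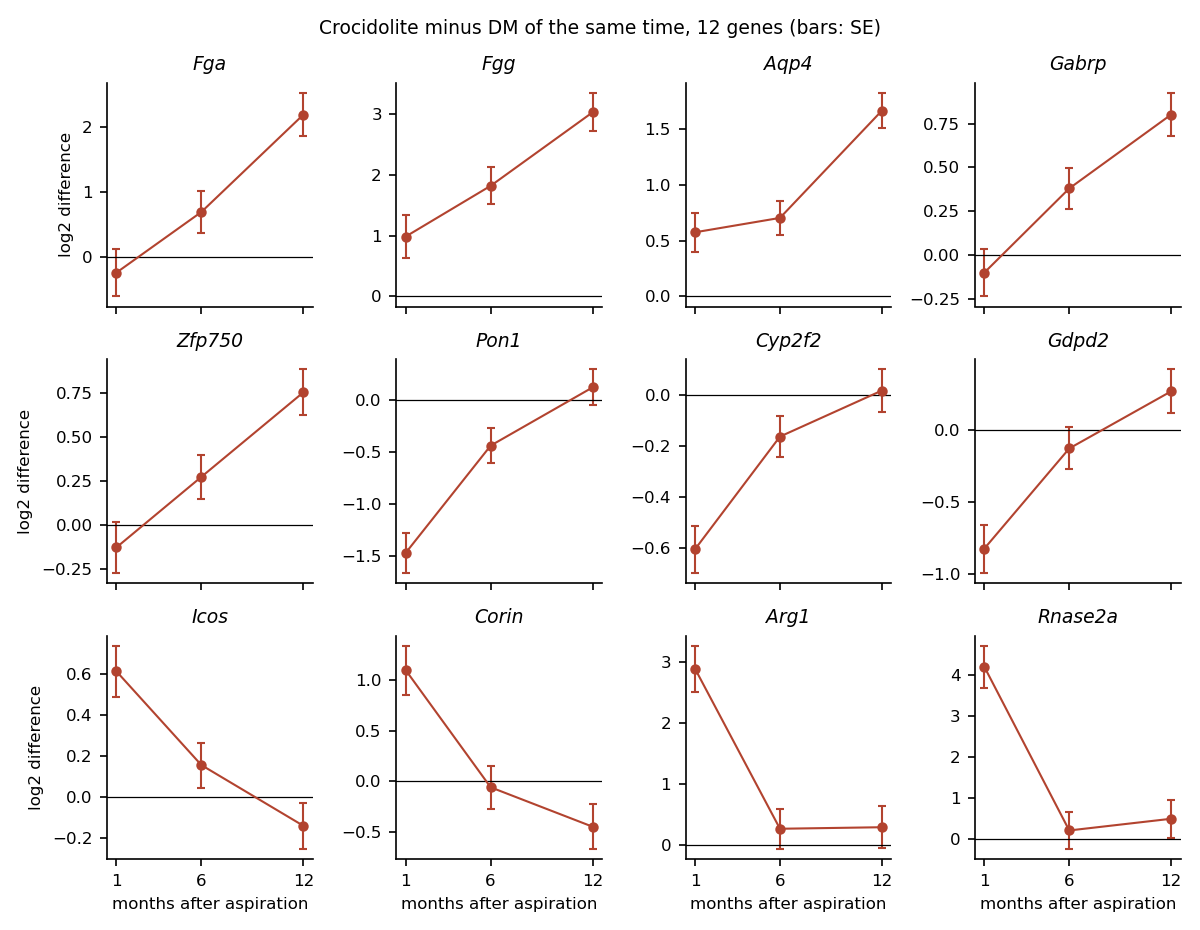
Log2 difference, crocidolite minus DM of the same time, with SE (vertical axes) at 1, 6 and 12 months (horizontal axes) for the 12 genes whose effect at 12 months differed from that at 1 month. The crocidolite groups held 5, 8 and 7 mice at these times, and each DM group held 8. Fga, Fgg, Aqp4, Gabrp and Zfp750 have their highest value at 12 months, Pon1, Cyp2f2 and Gdpd2 are near 0 there after values of -1.47, -0.61 and -0.82 at 1 month, and Rnase2a and Arg1 fall to 0.50 and 0.30 after 4.21 and 2.88.

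Lungs given 80 µg MWCNT at the same time differed from DM in 35 genes higher (0.158%) and 4 lower (0.018%), or 0.176% in all, and the masses of fibre differ, so the sizes are not matched. Directly compared, crocidolite lungs were higher than these MWCNT lungs in 0.83% of genes and lower in 0.149%, or 0.978% in all, which became 0.6% without crocidolite replicate 2 and 0.6% without replicate 6. Dmbt1 had a mean of 7.04 ± 0.79 with crocidolite (SD, n = 7), 2.96 ± 0.48 with 80 µg MWCNT (n = 8) and 2.68 ± 0.34 with DM, and the crocidolite and MWCNT means differed by 4.09 ± 0.29 (adjusted p = 9.55e-24). Its means at 1, 10 and 40 µg MWCNT were 2.53, 2.60 and 3.30. Gp2 was at 7.60 ± 0.36 with crocidolite, 4.47 ± 0.79 with 80 µg MWCNT and 3.33 ± 0.36 with DM, and Fgg at 6.49 ± 0.59, 3.77 ± 0.37 and 3.47 ± 0.40. Il33 was at 8.30 ± 0.16 with crocidolite, 7.52 ± 0.31 with 80 µg MWCNT and 7.33 ± 0.33 with DM, differing between the fibres by 0.78 ± 0.15 (adjusted p = 0.000921).

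Clca1 was at 8.44 ± 0.83 with crocidolite, 8.45 ± 1.13 with 80 µg MWCNT and 3.74 ± 0.44 with DM. The fibres differed by -0.00 ± 0.66, with a 95% interval from -1.30 to 1.30. Of the 20 named genes furthest above DM with crocidolite, 17 were past the test against 80 µg MWCNT, the other 3 being Clca1, Mmp12 (0.95 ± 0.36, interval 0.23 to 1.67) and Saa3 (1.33 ± 0.48, interval 0.37 to 2.28). Against DM, 9 of the 20 were also called higher with 80 µg MWCNT. They were Clca1 (4.70), Mmp12 (2.89), Gpnmb (2.30), Retnla (2.26), Ctsk (1.42), Cd177 (1.42), Cxcr1 (1.21), Gp2 (1.14) and Cdhr1 (0.85). These 20 were chosen for their crocidolite values, so both counts are a description. Genes lower with crocidolite than with 80 µg MWCNT included Gria1 (-0.68 ± 0.16) and, chosen after their values were seen, the potassium channel Kcna1 (-0.87 ± 0.23) and the matrix-associated signalling protein Ccn3 (-0.68 ± 0.14).

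**Figure D5:**
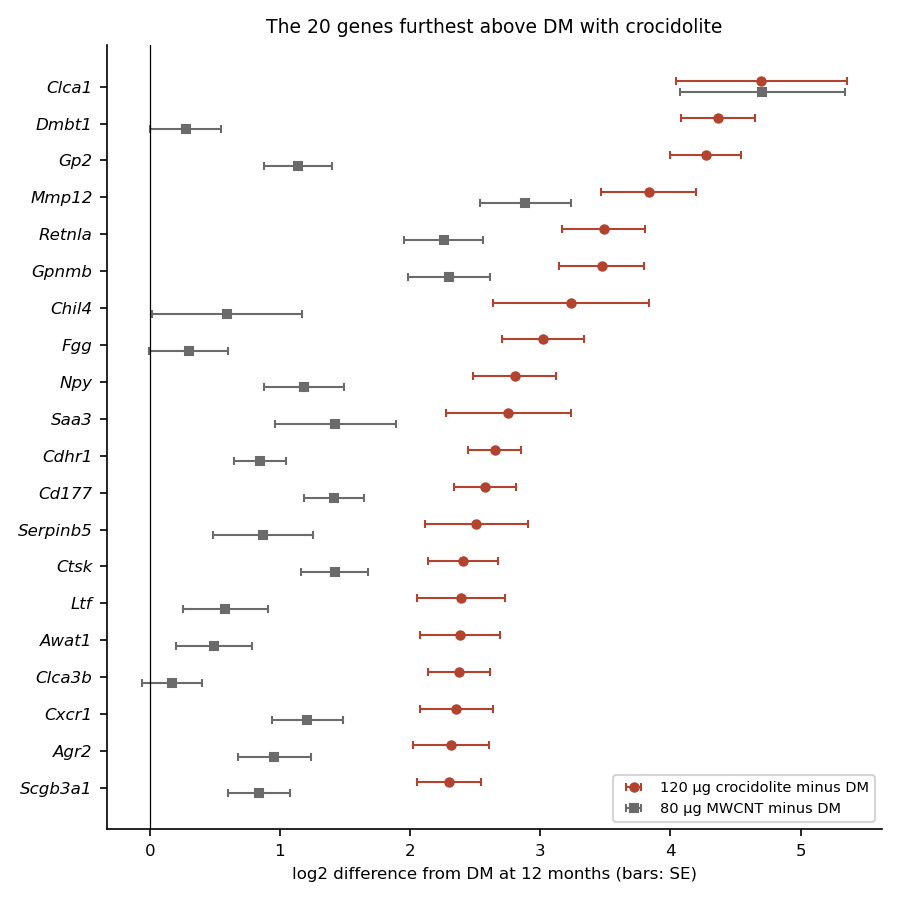
Log2 difference from DM at 12 months with SE (horizontal axis) for the 20 named genes furthest above DM with crocidolite, for 120 µg crocidolite (upper, n = 7) and 80 µg MWCNT (lower, n = 8), both against the same 8 DM mice. Clca1 is at 4.70 for both fibres, and Dmbt1 is at 4.36 and 0.28 and Fgg at 3.03 and 0.30.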

How the data were processed

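Total RNA of whole lung was hybridised to Affymetrix whole-transcript arrays, 1 per mouse except 1 mouse with 2, which were averaged. The deposited table holds log2 values for 41345 features on 139 arrays, and the submitters' processing notes name RMA, oligo and limma, without versions. Features with 1 gene symbol (23521) were kept, and of several features of a gene the one with the highest mean was used, which left 22180 genes and set 1341 features aside. Array precision is limited by the number of mice, and no depth applies.

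limma 3.58.1 in R 4.3.3 was fitted to all 18 groups of 138 mice, with contrasts for each comparison and Benjamini-Hochberg adjustment over 22180 genes at 0.05. It was tested on simulated data. Tables were made in Python 3.11.15 with pandas 2.3.3 and numpy 2.4.6, and plots with matplotlib 3.10.9. Replicate numbers are accession order and pair nothing.

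The comparison, the 49 gene lists and the tests were chosen with earlier results of these data known, and lists are described by counts and medians. Genes named are the 20 highest and 20 lowest among those called, passing over predicted genes, olfactory and vomeronasal receptors and immunoglobulin or T cell receptor variable segments, the first 3 of each list and the 5 largest called differences of each list. Any other named gene, whether called or not, was chosen after its values were seen: Reg3g, Fabp4, Lamp1, Ctsl, Ctsf, Mcoln1, Pdcd1lg2, Postn, Tnc, Igkv6-23, Nppa, Aqp4, Zfp750, Pon1, Cyp2f2, Gdpd2, Rnase2a, Corin, Icos, Kcna1, Ccn3, Spdef, Foxa3, Chia1, Chit1, Dcstamp, Ocstamp, Calcr, Nfatc1 and Fgb. Alternatives were other normalizations, filters, moderation and weights, subsets by the word replacement, and each mouse left out in turn. Leaving out DM replicates 2 and 4 together was added after seeing the data.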

Additional observations from a re-analysis of the deposited data

Results flagged for a closer look

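Among 326 groups checked (163 named genes, 7 crocidolite or 8 DM mice each), 17 held a mouse standing apart from the rest of its group, and chance alone flags about 1 in 20 groups. In crocidolite lungs these were replicate 7 for Muc5b (lowest, 8.62), Agr2 (highest, 7.37), Adam8 (lowest, 6.63), S100a8 (highest, 7.31), Bex4 (highest, 6.08) and Cyp2f2 (lowest, 12.08), replicate 4 for Chit1 (highest, 3.25) and Cldn4 (highest, 6.50), replicate 6 for Clca3b (highest, 6.02), replicate 2 for Lcn2 (highest, 10.74) and replicate 1 for Serpinb5 (highest, 6.01). In DM lungs they were replicate 2 for Acta1 (highest, 7.92), Clca1 (highest, 4.75), Chil4 (highest, 4.13), Lamp1 (lowest, 10.18) and Cxcl17 (lowest, 7.39), and replicate 4 for Ebf1 (highest, 7.61).

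The crocidolite effect differed between 12 months and 1 month by limma's test of the difference in 12 genes. It was larger at 12 months for Fga (2.43), Fgg (2.04), Aqp4 (1.09), Gabrp (0.90) and Zfp750 (0.88). It was less negative or had turned positive for Pon1 (1.59), Gdpd2 (1.09) and Cyp2f2 (0.62), and smaller for Rnase2a (-3.71), Arg1 (-2.59), Corin (-1.55) and Icos (-0.75).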

How the results depend on the processing

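Counts of called genes are given here as shares of the 22180 genes. Between crocidolite and DM, 6.47% became 10.3% with array weights (1247 higher, 1032 lower), 1.3% among titles with the word replacement and 2.78% among titles without it, and 5.23% to 7.06% when single mice were left out. For the change of effect between 12 months and 1 month, 0.0541% became 0.0857% after quantile normalization, 0.0857% with a spline of accession order, 0 without arrays of low correlation, 0 among titles with the word (1038 genes at an unadjusted p under 0.05 by limma), 0.00902% among titles without it, and 0.0406% to 0.122% without single mice. Between crocidolite and 80 µg MWCNT, 0.978% became 0.302% with those groups fitted alone, 0.32% among titles with the word, 2.18% among titles without it, 0.591% with a spline, and 0.6% to 1.08% without single mice. Of the called genes named here, 0 reversed in any setting, 58 were no longer past limma's test among titles with the word, 48 among titles without it (sets of 8 and 7 mice) and 10 with the 2 groups fitted alone. Leaving out some single mouse ended the call of 17: Acta2 (9 mice), Cldn4 (8), Cdh5 (7), Smad6 (5), Ebf1 (5), Timp1 (4), Cav1, Pax5, Plvap, Inhba, Ifi30, Col13a1, Foxp3, Krt18, Pecam1, Kit and Itgae, with adjusted p up to 0.169. The causes of these changes were not tested. No paired analysis was possible because the groups share no mouse numbers and replicate numbers are accession order. The files hold no detection calls, so low levels may lie at background.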
